A study of Mus musculus with 6 samples.

Results

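The genes described here are 10 effectors of the interferon response: Parp9, its partner Dtx3l, Parp14, Trim21, Trim25, Trim30a, Rtp4, Bst2, Xaf1 and Samhd1. They were picked by symbol with earlier results of these libraries known, so their differences between groups are given as a description. All 10 are among the 18158 features of a table in transcripts per 1000000 (TPM), a unit that divides reads by gene length and brings every library to one sum. Ventricles of 6 mice of the outbred CD1 stock, aged 3 months, were profiled by mRNA sequencing at 76 bp, 1 library per mouse. Of these mice, 3 had received paromomycin and neomycin (Paro/Neo), a pair of aminoglycoside antibiotics, as 2 intraperitoneal injections per day of 150 mg/kg, and 3 had received PBS (vehicle), both for 14 days. Neither group carries a mutation or transgene in the labels, and the libraries hold the whole ventricle and not a single cell type. Per the design text, the study addressed gene expression where the drugs suppress the activity of the transcription factors Meis1 and Hoxb13.

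Interferons bind receptors on the cell surface and activate JAK kinases, which phosphorylate STAT proteins. STAT complexes that hold IRF9 bind the interferon-stimulated response element (ISRE), while STAT dimers bind the gamma-activated site (GAS). The genes switched on in this way include ADP-ribosyltransferases of the PARP family, ubiquitin ligases of the TRIM family, and proteins that act on viral particles or on the nucleotides viruses need. Such genes are expressed at a low basal level in most tissues, the heart included.

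The promoter sequences show where the DNA letters of these elements occur near the start sites of the genes. RefSeq windows (GRCm38.p6) from 250 bases before to 50 bases after the start site were found for 7 of the 10 genes, 8 windows in all, as Trim30a has 2 start sites. The ISRE core was searched as GAAA, any 2 bases, GAAA and the GAS as TTCNNNGAA, on both strands, and matches may overlap. The first sequence is the 250 bases upstream of Bst2, shown because it is the 1 window with matches to both motifs, and its capitals mark 2 overlapping ISRE cores. The remaining lines give a match in capitals with 10 bases on either side. In Trim30a the letters lie on the strand opposite the gene.
Bst2, chr8:71537473-71537722, minus strand: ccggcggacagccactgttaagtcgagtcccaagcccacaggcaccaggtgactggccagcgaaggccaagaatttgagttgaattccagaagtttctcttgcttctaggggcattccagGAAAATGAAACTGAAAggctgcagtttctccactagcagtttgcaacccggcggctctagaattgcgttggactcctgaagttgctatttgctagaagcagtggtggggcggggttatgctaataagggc
Trim21, first ISRE core, chr7:102565450-102565479, minus strand: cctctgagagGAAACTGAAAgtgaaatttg
Trim21, second ISRE core, chr7:102565444-102565473, minus strand: agaggaaactGAAAGTGAAAtttggactgc
Trim30a, upstream start site, ISRE core, chr7:104465210-104465239, minus strand: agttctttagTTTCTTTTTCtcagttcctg
Trim30a, downstream start site, ISRE core, chr7:104446104-104446133, minus strand: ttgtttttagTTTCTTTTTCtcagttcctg
Samhd1, GAS, chr2:157135313-157135341, minus strand: acaccaccctTTCGGAGAAacacaagggc

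The ISRE core was present in 4 of the 8 windows, those of Bst2, Trim21 and both starts of Trim30a, against 3.44% of 32851 windows of the same length over all genes. In Bst2 the matches lay at -130 to -121 and -124 to -115 from the start site, and a GAS match at -136 to -128 overlapped the first of them. In Trim21 the 2 overlapping matches lay at 14 to 23 and 20 to 29. A GAS match was present in 2 of the 8 windows, Bst2 and Samhd1, against 8.30% of all windows. The windows of Trim25, Xaf1 and Dtx3l held neither motif, which says only that these letters do not occur there. Windows were found for 38 of 44 other interferon-stimulated genes, and 16 of their 51 windows held the ISRE core, 31.4%. Counted by gene, so that Trim30a counts once, the ISRE core was present in 3 of 7 genes, 42.9%. This share was 16 of 38, 42.1%, for the other interferon-stimulated genes and 3.99% for all genes with a window.

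**Figure D1:**
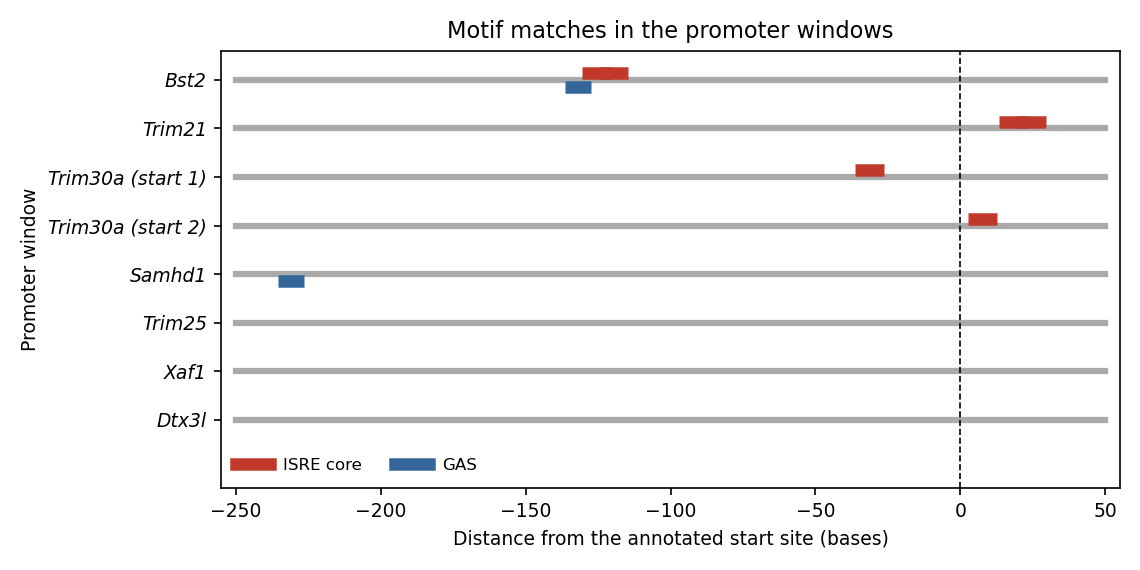
Position of motif matches in the 8 promoter windows, in bases from the annotated start site (dashed line). Red bars are ISRE cores and blue bars GAS matches; those of Bst2 lie between -136 and -115, and the windows of Trim25, Xaf1 and Dtx3l hold none.

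All 10 genes had a higher mean in Paro/Neo hearts than in vehicle hearts, with log2 changes between 0.22 and 1.25 and a median of 0.71, where the median of the 12409 genes tested was -0.02 and 46.3% of them were higher. In 8 of the 10, every Paro/Neo heart lay above every vehicle heart, which held in that direction for 6.04% of the tested genes and in the lower direction for 8.22%. Only Rtp4 passed the threshold over all genes, a p under 0.05 by limma after Benjamini-Hochberg adjustment, against 0.121% of tested genes called higher and 0.0161% called lower. An unadjusted p under 0.05 in the higher direction was met by 8 of the 10, against 3.24% of tested genes. In either direction, as counted for the lists of other genes, it was met by 7.61% of tested genes. These shares are read as a description, since the genes were chosen with this contrast known. All 10 passed the filter on low values, at least 1 TPM in 3 of 6 libraries, in vehicle hearts alone. The smallest p of an exact permutation test over 3 and 3 mice is 0.10, so this test could not pass 0.05 and is not used. Changes are on the log2(TPM + 1) scale, which understates the change of low genes.

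Depth, read from the steps of the TPM values, was at least 9556387 to 15969980 reads per library, and each gene described had 77 to 1042 reads per library. The 6 cardiomyocyte markers were abundant, with a summed level of 54220 to 59580 TPM in Paro/Neo and 52590 to 56420 TPM in vehicle hearts. Paro/Neo replicate 1 stood apart over all genes, with a mean correlation with the other libraries of 0.9755, against 0.9814 to 0.9853. Without it the median log2 change of the 10 genes was 0.68. By limma 0 of the 10 then passed over all genes, and 6 genes did over the whole table, against 17 with all libraries. The groups did not overlap in 8 of 10, a count that leaving out a library cannot lower, with 10.7% of tested genes doing so in that direction.

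**Figure D2:**
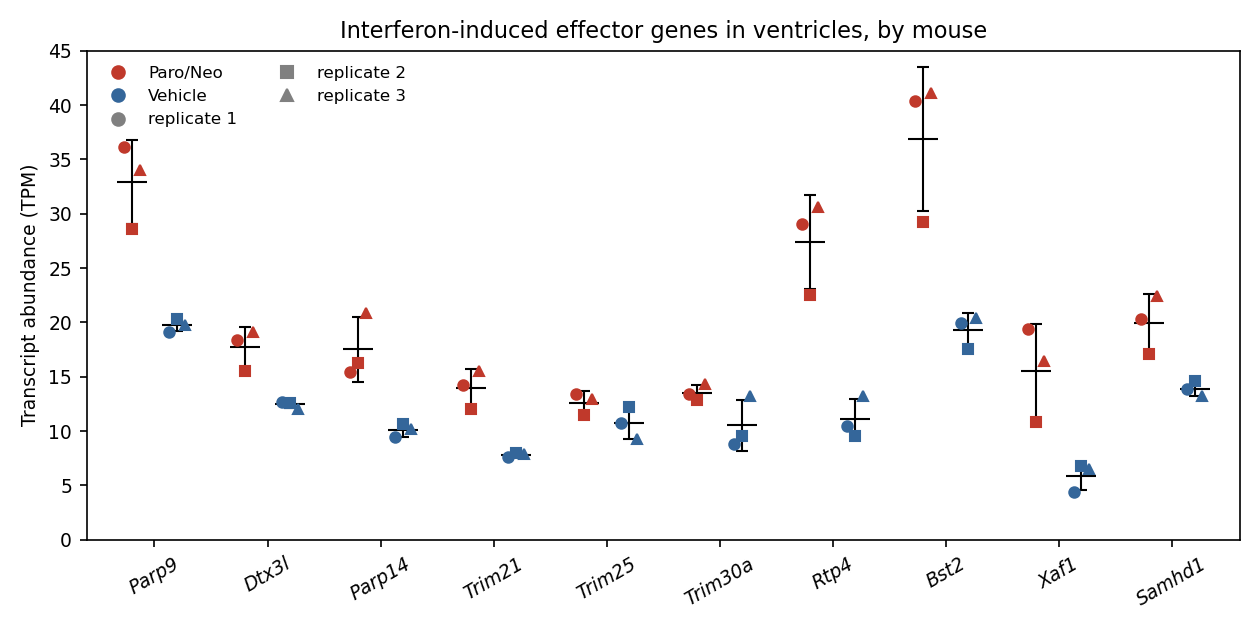
TPM of each gene in each mouse, Paro/Neo (red, left) and vehicle (blue, right); symbols are replicates, the wide dash is the group mean and bars are the SD (n = 3). The groups overlap in Trim25 and Trim30a and are apart in the other 8 genes.

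Parp9, Dtx3l and Parp14 lie together on chromosome 16. PARP9 is a macrodomain protein that forms a complex with DTX3L, a ubiquitin ligase of the deltex family, and PARP14 is a mono-ADP-ribosyltransferase with macrodomains. Parp9 had 36.1, 28.6 and 34.05 TPM in Paro/Neo replicates 1 to 3, against 19.2, 20.3 and 19.8 TPM in vehicle replicates 1 to 3. The vehicle hearts were nearly level, and the lowest Paro/Neo heart, replicate 2, was well above them. The group means were 32.9 ± 3.90 TPM in Paro/Neo and 19.8 ± 0.59 TPM in vehicle (SD, n = 3 each). The log2 change of Parp9 was 0.70 ± 0.12 (SE).

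Dtx3l had 18.4, 15.5 and 19.2 TPM in Paro/Neo hearts, against 12.7, 12.6 and 12.1 TPM in vehicle hearts, a log2 change of 0.47 ± 0.11 (SE). The groups did not overlap, and again Paro/Neo replicate 2 was the lowest treated heart. Parp14 had 15.4, 16.2 and 20.9 TPM in Paro/Neo hearts, against 9.45, 10.7 and 10.2 TPM in vehicle hearts, a log2 change of 0.73 ± 0.14 (SE). Here Paro/Neo replicate 1 was the lowest treated heart and replicate 3 the highest, the 1 gene of the 10 in which replicate 2 was not the lowest.

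The ratio of Parp9 to Dtx3l in TPM was 1.965, 1.84 and 1.78 in Paro/Neo hearts and 1.51, 1.61 and 1.64 in vehicle hearts. It was thus higher in every Paro/Neo heart, a difference that was not tested. Parp9 (chromosome 16, 35938470 to 35972605, plus strand) and Dtx3l (35926511 to 35939151, minus strand) overlap head to head by 682 bp in GENCODE M21 on GRCm38, 458 bp of it exonic in both. The libraries were stranded, but the strand setting of the counting is not given in the sources used here, so reads from the shared stretch could have gone to either gene. Parp14 lies at 35832874 to 35871544 and overlaps neither, but shares 110 exonic bp with Gm49730 on its own strand, which was not analysed here.

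The TRIM proteins are ubiquitin ligases with a RING finger. TRIM21 binds the Fc part of antibodies in the cytosol and sends antibody-coated particles to the proteasome, TRIM25 acts with the RNA sensor RIG-I and the antiviral protein ZAP, and mouse TRIM30a is known as a restraint on NF-kB signalling. Trim21 (chromosome 7, 102557921 to 102565486) had 14.3, 12.05 and 15.5 TPM in Paro/Neo hearts, against 7.57, 7.999 and 7.87 TPM in vehicle hearts. The vehicle hearts spanned less than 1 TPM and all Paro/Neo hearts were clear of them. Its log2 change was 0.75 ± 0.12 (SE), from means of 13.9 ± 1.75 TPM in Paro/Neo and 7.82 ± 0.22 TPM in vehicle (SD, n = 3 each).

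Trim25 and Trim30a were the 2 genes whose groups overlapped. Trim25 had 13.4, 11.5 and 12.96 TPM in Paro/Neo hearts, against 10.7, 12.2 and 9.25 TPM in vehicle hearts, a log2 change of 0.22 ± 0.13 (SE). Paro/Neo replicate 2 lay below vehicle replicate 2. Trim30a had 13.4, 12.8 and 14.3 TPM in Paro/Neo hearts, against 8.81, 9.52 and 13.2 TPM in vehicle hearts, a log2 change of 0.35 ± 0.15 (SE). Vehicle replicate 3 lay within the range of the treated hearts, and without it the log2 change of Trim30a was 0.52. Trim30a belongs to a cluster of similar genes, so its reads could have been split. Its neighbours Trim30b and Trim30d had at most 1.44 TPM in any library.

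Rtp4 and Xaf1 had the largest changes of the 10. RTP4 is a chaperone of G protein-coupled receptors that is also known as an interferon-induced antiviral protein. Rtp4 (chromosome 16, 23520291 to 23614222) rose to 29.1, 22.5 and 30.6 TPM in Paro/Neo hearts, against 10.5, 9.55 and 13.2 TPM in vehicle hearts. Every treated heart lay far above every vehicle heart. The ratio of the means was 2.475 in Paro/Neo over vehicle. The log2 change was 1.23 ± 0.16 (SE), and limma gave an adjusted p of 0.0426. This call is close to the threshold, with an adjusted p of 0.02745 to 0.181 over 15 alternatives. By limma the p was 0.148 and 0.0917 without Paro/Neo replicates 1 and 3, 0.1585, 0.181 and 0.0785 without vehicle replicates 1, 2 and 3, and 0.155 with no filter on low values. The gene body of Rtp4 overlaps the transcript Gm45338 on the same strand, with 296 bp shared between exons, so reads from that stretch could belong to either. Gm45338 was not analysed here. On the other strand Rtp4 overlaps Masp1 by 525 bp, with 0 bp shared between exons.

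XAF1 binds the apoptosis inhibitor XIAP and opposes it. Xaf1 (chromosome 11, 72301629 to 72313733) had 19.4, 10.9 and 16.5 TPM in Paro/Neo hearts, against 4.42, 6.79 and 6.50 TPM in vehicle hearts. It was the lowest of the 10 genes in vehicle hearts and the most variable in Paro/Neo hearts, with a coefficient of variation of 27.7% in Paro/Neo and 21.9% in vehicle. Its log2 change, 1.25 ± 0.22 (SE), was slightly larger than that of Rtp4 but limma put its adjusted p at 0.131, above the threshold.

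BST2, or tetherin, holds budding enveloped viruses at the cell membrane. Bst2 (chromosome 8, 71534255 to 71537456) had 40.3, 29.3 and 41.1 TPM in Paro/Neo hearts, against 19.9, 17.5 and 20.45 TPM in vehicle hearts, a log2 change of 0.89 ± 0.15 (SE). Replicate 2 was the lowest heart of its group on both sides, and the groups were apart. Without Paro/Neo replicate 2, Bst2 passed as well, with a log2 change of 1.04 and an adjusted p of 0.0304 by limma, against 0.1035 with all libraries.

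SAMHD1 hydrolyses deoxynucleoside triphosphates, the building blocks that reverse transcription of retroviruses needs. Samhd1 (chromosome 2, 157097533 to 157135265) had 20.3, 17.1 and 22.45 TPM in Paro/Neo hearts, against 13.9, 14.6 and 13.2 TPM in vehicle hearts, a log2 change of 0.48 ± 0.12 (SE). The groups did not overlap, with a gap between vehicle replicate 2 and Paro/Neo replicate 2.

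**Figure D3:**
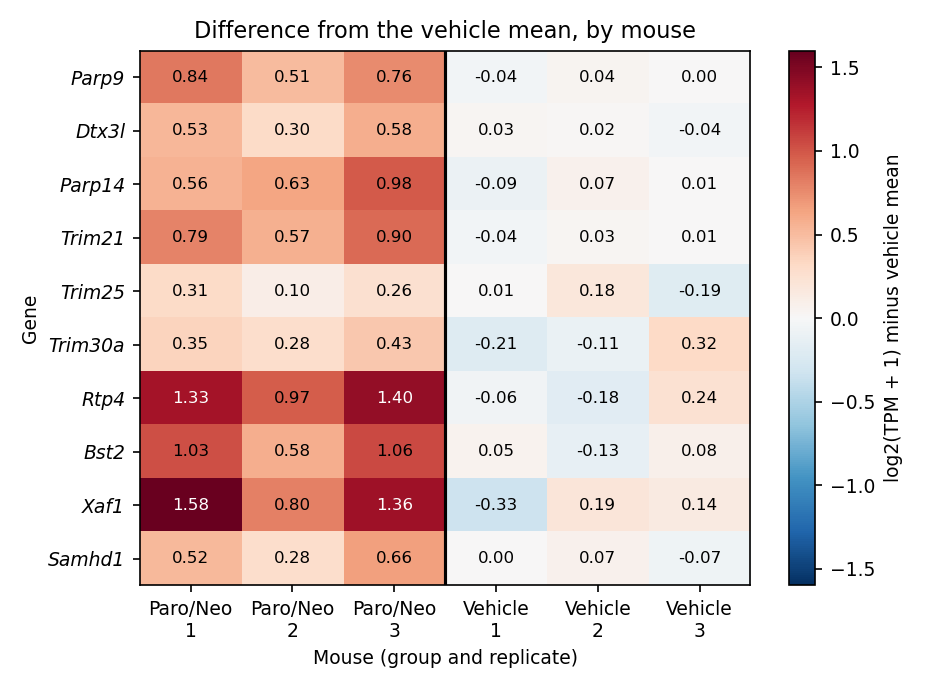
Heat map of log2(TPM + 1) minus the mean of the 3 vehicle hearts, genes in rows and mice in columns, Paro/Neo left of the line. Values in Paro/Neo hearts run between 0.10 and 1.58, lowest in replicate 2 for all genes but Parp14, and in vehicle hearts between -0.33 and 0.32.

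The treated hearts differed among themselves in the same way for most of the genes. Relative to the vehicle mean, the median over the 10 genes was 0.68, 0.54 and 0.83 in Paro/Neo replicates 1 to 3 and -0.04, 0.03 and 0.01 in vehicle replicates 1 to 3 (log2). Paro/Neo replicate 2 was the lowest treated heart for 9 of the 10 genes, and replicate 3 the highest for 7. The spread was wider in Paro/Neo hearts for 7 genes, among them Parp9, at 11.8% in Paro/Neo and 3.00% in vehicle, and Trim21, at 12.5% in Paro/Neo and 2.80% in vehicle (coefficient of variation). The reverse held for Trim25, Trim30a and Rtp4.

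The order of levels, in TPM, changed with the size of the differences. In Paro/Neo hearts the order ran Bst2, Parp9, Rtp4, Samhd1, Dtx3l, Parp14, Xaf1, Trim21, Trim30a and Trim25, with means of 36.9 to 12.6 TPM. In vehicle hearts it ran Parp9, Bst2, Samhd1, Dtx3l, Rtp4, Trim25, Trim30a, Parp14, Trim21 and Xaf1, with means of 19.8 to 5.90 TPM. Neighbours in the order overlapped in range for 8 of 9 pairs in Paro/Neo hearts and for 5 of 9 in vehicle hearts. Rtp4 and Samhd1 were the 1 pair apart in Paro/Neo hearts, and only narrowly. The lowest Rtp4 value there was 22.51 TPM and the highest Samhd1 value 22.45 TPM. In vehicle hearts Bst2 stood clear of Samhd1, Samhd1 of Dtx3l, Parp14 of Trim21, and Trim21 of Xaf1.

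The 5 tested genes most like the 10, by the root mean square difference over the 6 libraries from their median profile, were Uba7, Tnfsf10, Ly86, Cmpk2 and Herc6, at 0.059 to 0.115 on the log2 scale. UBA7 is the activating enzyme of the ubiquitin-like protein ISG15, and HERC6 is its main ligase in the mouse. CMPK2 is a mitochondrial nucleotide kinase, TNFSF10 is the death ligand TRAIL, and LY86 is a surface partner of the Toll-like receptor homologue CD180. Uba7, the closest, had 11.3, 10.8 and 13.7 TPM in Paro/Neo hearts, against 6.30, 6.97 and 7.46 TPM in vehicle hearts. Genes picked in this way share the profile of the 10 by construction.

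Upstream genes of the pathway differed in their pattern over the treated hearts. Stat2 had 8.83, 10.3 and 15.9 TPM in Paro/Neo hearts, against 5.42, 5.68 and 6.76 TPM in vehicle hearts. Among treated hearts it was lowest in replicate 1 and highest in replicate 3, as Parp14 was. Irf9 had 34.2, 24.6 and 43.1 TPM in Paro/Neo hearts, against 11.7, 12.6 and 14.98 TPM in vehicle hearts. Irf7, the transcription factor that amplifies the response, was highest in Paro/Neo replicate 1 instead, with 31.45, 19.8 and 22.7 TPM in Paro/Neo hearts, against 3.48, 5.26 and 5.14 TPM in vehicle hearts. Of these 3 genes only Irf7 passed over all genes (adjusted p = 0.0136, limma). The 13 tested genes of interferon signalling comprised 9 higher and 4 lower ones, and their median log2 change was 0.16. Irf7 and the ISG15 protease gene Usp18 (10.9 ± 1.96 TPM in Paro/Neo and 3.30 ± 0.83 TPM in vehicle, SD, n = 3 each) rose.

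A list of 44 other interferon-stimulated genes, 42 of them tested, had 36 genes higher and 6 lower, and the median log2 change was 0.62. Of these, 31 did not overlap between groups in the higher direction, and 2 passed over all genes, against the background shares above. The 2 that rose were Ifit1, which binds viral RNA caps (35.15 ± 10.6 TPM in Paro/Neo and 5.14 ± 0.40 TPM in vehicle, SD, n = 3 each), and the GTPase gene Gbp3. Gbp3 had 36.8, 25.6 and 42.6 TPM in Paro/Neo hearts, against 10.5, 10.45 and 12.2 TPM in vehicle hearts. The count of 2 became 6 with array weights and 4 by voom. It was 1 without any 1 of the vehicle replicates or of Paro/Neo replicates 1 and 3, and 4 without Paro/Neo replicate 2. The list medians over the treated hearts, 0.59, 0.50 and 0.78, were in the same order as those of the 10 genes. This list, too, was chosen with results of these libraries known.

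The lists of relatives by family had medians nearer to that of all genes, a difference from the 10 that was not tested. Of 14 other PARP genes 11 were higher and 3 lower, the median log2 change was 0.10, and none passed by limma or by voom. By limma 3 of the 14 had an unadjusted p under 0.05, against 7.61% of all tested genes. Parp12, also interferon-induced, had 14.2, 15.9 and 19.65 TPM in Paro/Neo hearts, against 10.7, 12.0 and 11.2 TPM in vehicle hearts, a log2 change of 0.51 ± 0.14 (SE). Its groups did not overlap. Among treated hearts it was lowest in replicate 1 and highest in replicate 3, as Parp14 was. Parp6 was at 14.3 ± 1.42 TPM in Paro/Neo and 18.03 ± 0.61 TPM in vehicle (SD, n = 3 each).

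Of 35 tested TRIM genes outside the 10, 21 were higher and 14 lower, the median log2 change was 0.04, and none passed by limma or voom. By limma 3 of the 35 had an unadjusted p under 0.05, against 7.61% of all tested genes. The groups did not overlap for 5 in the higher and 1 in the lower direction, against 6.04% and 8.22% of tested genes. Single genes of this list had larger values than most of the 10, up to a log2 change of 1.10 for Trim12c, whose groups overlapped (named after its values were seen). The smallest p belonged to Trim34b, a neighbour of Trim30a, at 2.04 ± 0.48 TPM in Paro/Neo and 0.755 ± 0.26 TPM in vehicle (SD, n = 3 each). It had 5 to 27 reads per library. Trim2 was at 3.27 ± 0.42 TPM in Paro/Neo and 4.53 ± 0.45 TPM in vehicle hearts.

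Genes that remove ADP-ribose and the other deltex ligases had a median log2 change of -0.05. Of 10 tested, 4 were higher and 6 lower, and none passed by limma or voom, with 1 at an unadjusted p under 0.05 by limma. The deltex gene Dtx4 was at 5.39 ± 1.00 TPM in Paro/Neo and 7.24 ± 0.67 TPM in vehicle hearts. Macrod1, a mono-ADP-ribose hydrolase of mitochondria, was at 143 ± 8.82 TPM in Paro/Neo and 126 ± 10.3 TPM in vehicle hearts (SD, n = 3 each).

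Partners of TRIM25, XAF1 and SAMHD1 had a median log2 change of 0.12. Of 11 tested, 6 were higher and 5 lower, and none passed by limma or voom. By limma 3 of the 11 had an unadjusted p under 0.05, against 7.61% of all tested genes. Birc2, an inhibitor of apoptosis, was at 43.4 ± 7.21 TPM in Paro/Neo and 32.2 ± 2.14 TPM in vehicle hearts. Mavs, the adaptor on which RIG-I signals, was at 29.5 ± 4.42 TPM in Paro/Neo and 37.7 ± 1.14 TPM in vehicle hearts (SD, n = 3 each).

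**Figure D4:**
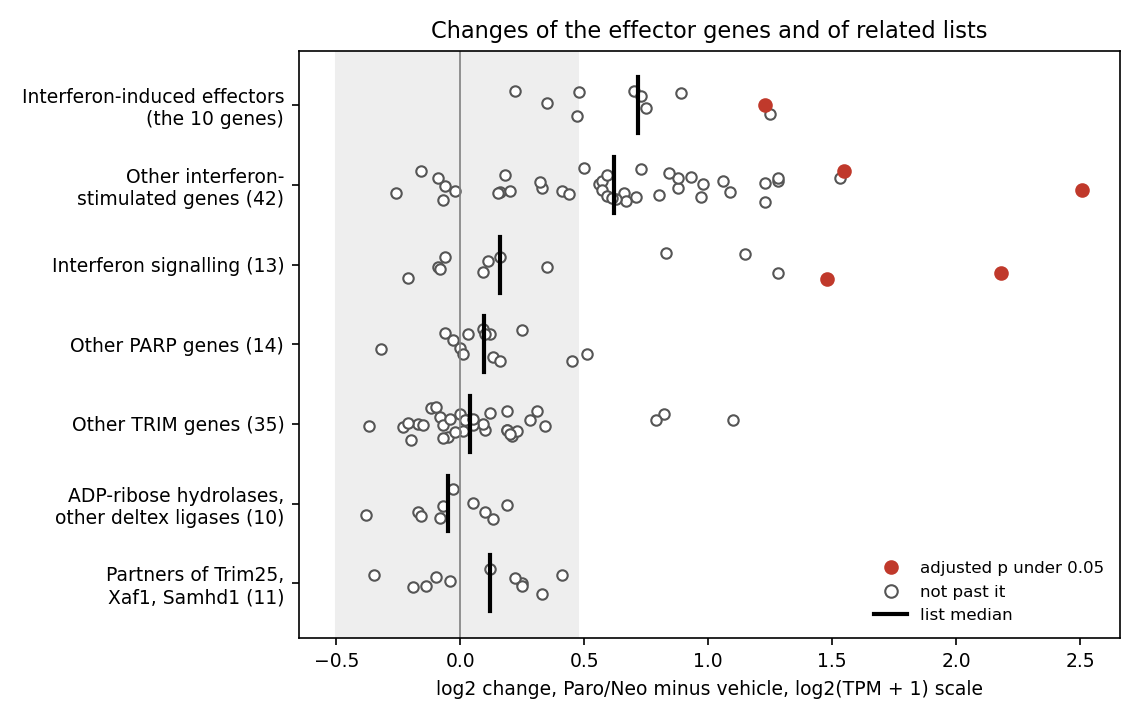
log2 change, Paro/Neo minus vehicle, of each tested gene by list; filled points passed the adjusted p of 0.05, the black bar is the list median, and the grey band holds the central 95% of all tested genes, -0.50 to 0.47. The 10 genes and the other interferon-stimulated genes have medians of 0.71 and 0.62, and interferon signalling has 0.16. The family lists lie between -0.05 and 0.10, and the partners at 0.12.

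Genes next to the 10 on the chromosome had a median log2 change of 0.02. Of 28 tested genes within 100 kb of one of them, 15 were higher and 13 lower. In 4 of the 28 every Paro/Neo heart lay above every vehicle heart and in 0 below, against 6.04% and 8.22% of tested genes. None passed by limma or voom, and 3 had an unadjusted p under 0.05 by limma, Slc27a1 near Bst2 and Trim34b and Trim12c near Trim30a. Slc27a1 had 26.3, 26.8 and 27.5 TPM in Paro/Neo hearts, against 21.9, 19.9 and 21.7 TPM in vehicle hearts. Kpna1, next to Parp9, had 172, 121 and 109 TPM in Paro/Neo hearts, against 114, 108 and 128.5 TPM in vehicle hearts, and its groups overlapped. These genes were named after their values were seen.

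In whole ventricle, fewer or more cells of a type and less or more RNA per cell cannot be told apart. Macrophage and monocyte markers were higher for 11 of 12 tested, with a median log2 change of 0.19 and a summed level of 609 to 675 TPM in Paro/Neo and 517 to 634 TPM in vehicle hearts, ranges that overlap. The lower one, Cd68, had 9.51, 14.9 and 15.5 TPM in Paro/Neo hearts, against 16.3, 17.1 and 16.1 TPM in vehicle hearts, without overlap. Fcgr1 and Mrc1 did not overlap in the higher direction, and the rest overlapped. None of the 12 passed by limma or voom, with 2 at an unadjusted p under 0.05 by limma. Ly6c2 was at 0 in some library, and Adgre1 was not analysed here. The 13 markers of lymphocytes and plasmacytoid dendritic cells summed to 6.49 to 13.3 TPM in Paro/Neo and 3.53 to 6.23 TPM in vehicle hearts. These ranges do not overlap. Only 2 of these markers, Gzma and Siglech, were high enough to test, and Cd3e, Cd79a, Nkg7, Gzmb and Ccr9 were at 0 in some library. Gzma was the largest part of the sum in every Paro/Neo heart. It had 4.65, 1.87 and 4.05 TPM there, against 0.70, 2.33 and 2.09 TPM in vehicle hearts, and its groups overlapped. Siglech and Cd4 had nearly equal means in both groups, and the other markers had higher means in Paro/Neo hearts. Endothelial markers were lower for 5 of 5, with a median log2 change of -0.31. Their summed level was 196 to 299 TPM in Paro/Neo and 312 to 361 TPM in vehicle hearts, ranges that do not overlap. None passed by limma or voom, with 1 at an unadjusted p under 0.05 by limma. Fibroblast markers were higher for 0 of 4, with a median log2 change of -0.20, none called by limma or voom and 1 at an unadjusted p under 0.05 by limma. Their sum, most of it Dcn, was 1774 to 1969 TPM in Paro/Neo and 1896 to 1951 TPM in vehicle hearts. Markers of smooth muscle and pericytes were higher for 1 of 4, Rgs5 at a log2 change of only 0.005, with a median of -0.31. None passed by limma or voom, with 0 at an unadjusted p under 0.05 by limma. Their sum, most of it Rgs5, was 345 to 662 TPM in Paro/Neo and 408 to 485 TPM in vehicle hearts. Rgs5 had 609.5, 308.6 and 240 TPM in Paro/Neo replicates 1 to 3. The part of these cell types in the differences of the 10 genes was not tested.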

How the data were processed

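TPM as deposited by the authors fill 1 table, with a column for each mouse that sums to 1000000. The submitters' processing notes name STAR 2.5.3a, edgeR, Subread, featureCounts and FastQC 0.11.5, and mm10, with no role or order. The sources used here give no annotation or filter. TPM keep no depth, but commonest ratios among values below 1 TPM gave each library's scale. All 17574 features above 0 were then whole multiples of 1 read, to a tolerance of 0.001. Of these features 14330 were above 0 in all 6 libraries, and a feature above 0 in only 1 library is whole by construction. The reads found in this way are lower estimates and served for depth and 1 alternative. On simulated data, 95.1% of 3896 features were read back exactly.

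A gene was tested (12409 were) if 3 or more libraries had 1 TPM of it, and was fitted with limma 3.58.1 in R 4.3.3 (lmFit, eBayes with trend) on log2(TPM + 1), Paro/Neo against vehicle, two-sided, Benjamini-Hochberg adjusted over all of them. In simulated libraries of 12409 genes, the fit called 75 of 100 genes with a 2-fold change, 96 of 100 with a 4-fold change and 12 with none; no simulated library stood apart. Members and lists were chosen with earlier results of these data known. Named are, from each list, up to 4 genes that passed, with those of smallest p added where fewer than 2 did, the upstream genes and the 5 most alike; 1 upstream gene is not reported here. Coordinates are those of GENCODE M21 (GRCm38, which is mm10), and promoters are those of RefSeq. The sample titles gave the groups and the replicate numbers.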

Additional observations from a re-analysis of the deposited data

How the results depend on the processing

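The 10 genes were higher in Paro/Neo hearts in all 15 alternatives, with 0 of 150 values reversed, and 143 of 150 stayed on the same side of the threshold. Leaving out a library cannot reverse a gene whose groups do not overlap. Most of the 150 values belong to genes not called with all libraries, and the 6 values that lost a call were all of Rtp4. The median log2 change of the 10 genes was 0.64 to 0.78 when a library was left out. Leaving out each library in turn gave 5 to 27 genes called over the whole table, 0 to 2 of the 10 genes and 1 to 4 other interferon-stimulated genes, against 17, 1 and 2 with all libraries. The number of the 10 whose groups did not overlap was 8 to 10, against 8, and leaving out a library cannot lower it. The share of all tested genes doing so went up to 9.59% to 12.6%, against 6.04%, with 12.6% where the count was 10. This alternative was chosen after seeing the data. With no filter on low values, which adds genes to the adjustment, the counts called were 6, 0 and 1. Array weights gave 26 genes over the whole table and 6 other interferon-stimulated genes. Median scaling and voom each gave 4 other interferon-stimulated genes, and the cause was not tested.

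Same-numbered libraries, by the titles, had deviations that correlated at -0.122 to -0.036 across genes, and none correlated best with its own number. These values gave no sign that the numbers pair the mice but cannot exclude a pairing. The column headings number the treated hearts otherwise than the titles do, and that numbering was not examined. With the replicate number as a block, 27 genes were called over the whole table, and Rtp4 kept its call. The scaling alternatives moved the median of all genes by at most 0.02. Of the 10 genes only Rtp4, in 9 of the 15 alternatives, and Bst2, in 1, passed the adjustment over all genes.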

Other observations

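Trim12c and Trim34a, in the cluster of similar TRIM genes on chromosome 7 that holds Trim30a, varied widely between mice of the same group. They were named after their values were seen. Trim12c had 28.6, 18.4 and 16.95 TPM in Paro/Neo hearts, against 10.7, 17.8 and 3.70 TPM in vehicle hearts, and the groups overlapped. Trim34a, with 10 to 50 reads per library, had 1.102, 1.68 and 2.75 TPM in Paro/Neo hearts, against 1.85, 0.565 and 3.94 TPM in vehicle hearts. Vehicle replicate 3, the vehicle heart highest in Trim30a, was the lowest of all 6 in Trim12c and the highest of all 6 in Trim34a.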
